A study of Mus musculus with 6 samples.

Results

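Toll-like receptors are membrane proteins with which macrophages, dendritic cells, neutrophils, B cells and some epithelial and fat cells sense microbial molecules and molecules released by damaged tissue. Receptors at the cell surface (the products of Tlr1, Tlr2, Tlr4 and Tlr6) bind lipids and proteins, and receptors in endosomes (the products of Tlr3, Tlr7, Tlr8, Tlr9 and Tlr13) bind nucleic acids. On binding, all of these except TLR3 signal through the adaptor protein MYD88 to NF-kappaB, which drives inflammatory cytokine genes, and the endosomal receptors and TLR4 can also start interferon production. Described here are 9 receptor genes, Tlr1, Tlr2, Tlr3, Tlr4, Tlr6, Tlr7, Tlr8, Tlr9 and Tlr13, together with Myd88. They are 10 of the 22180 genes with a probe set of their own, taken as a gene family by name, with earlier results of these data known. All 10 were measured, each by 1 probe set.

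The tumours were mouse colorectal cancers grown from injected cancer cells, collected at a volume of 1 to 1.5 cm3 and each hybridised to an Affymetrix whole-transcript array. There were 2 groups with 3 mice in each, tumours that grew in white adipose tissue (body fat that stores lipid) and tumours that grew in non-adipose tissue. The labels name the 3 tumours of a group biological replicates. The sources used here name neither the cancer line nor the place of injection in the body, nor the hosts' strain, age and sex. Values are deposited log2 signals, so 1 unit is a doubling, and signals of different genes were not set against each other because each probe set has its own response. Arrays correlated across genes at 0.983 to 0.995, lowest between white adipose replicates 1 and 2. White adipose replicate 1 also stood apart for this family, so values are given with and without it where it moves them. Of the colorectal epithelial markers, Krt8 and Krt18 lay between 9.14 and 10.04 on all arrays, and Epcam, Cdx2, Vil1, Krt20, Krt19, Lgals4 and Cdh17 lay between 4.39 and 5.88, with no detection call to say whether those are above background. Adipoq, the defining adipocyte gene, was at 4.10, 4.13 and 4.27 in white adipose tumours, against 4.14 in each non-adipose tumour. The 7 adipocyte markers averaged 5.29, 5.38 and 5.83 in white adipose tumours, against 5.49, 5.50 and 5.55 in non-adipose tumours, with 5 higher and 2 lower in the mean, Fabp4 (-0.43, SE 0.55) and Retn (-0.011, SE 0.26).

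The question put to the family was whether tumours in fat differed from tumours elsewhere in the expression of these sensors. Differences were larger in size than the SD within groups for Tlr3, Tlr6, Tlr7 and Tlr13 and smaller than it for the other genes, and none passed the test. By limma with Benjamini-Hochberg adjustment over all genes, 0 of the 10 passed an adjusted p of 0.05, as did 0.0% of all genes, and the adjusted p of the 10 ran from 0.936 to 0.995. White adipose tumours had the lower mean for 7 of the 10 and the higher mean for 3, where 50.2% of all genes had a lower and 49.8% a higher mean. Differences ran from -0.39 for Tlr3 to 0.14 for Tlr8, and their median was -0.083 log2 units, beside -0.00043 over all genes. At an unadjusted p under 0.05 there was 1 gene, Tlr13, where 3.79% of all genes lay. For 2 of the 10 genes, Tlr3 and Tlr13, the highest array of one site lay below the lowest of the other, and that was so for 7.31% of all genes.

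**Figure D1:**
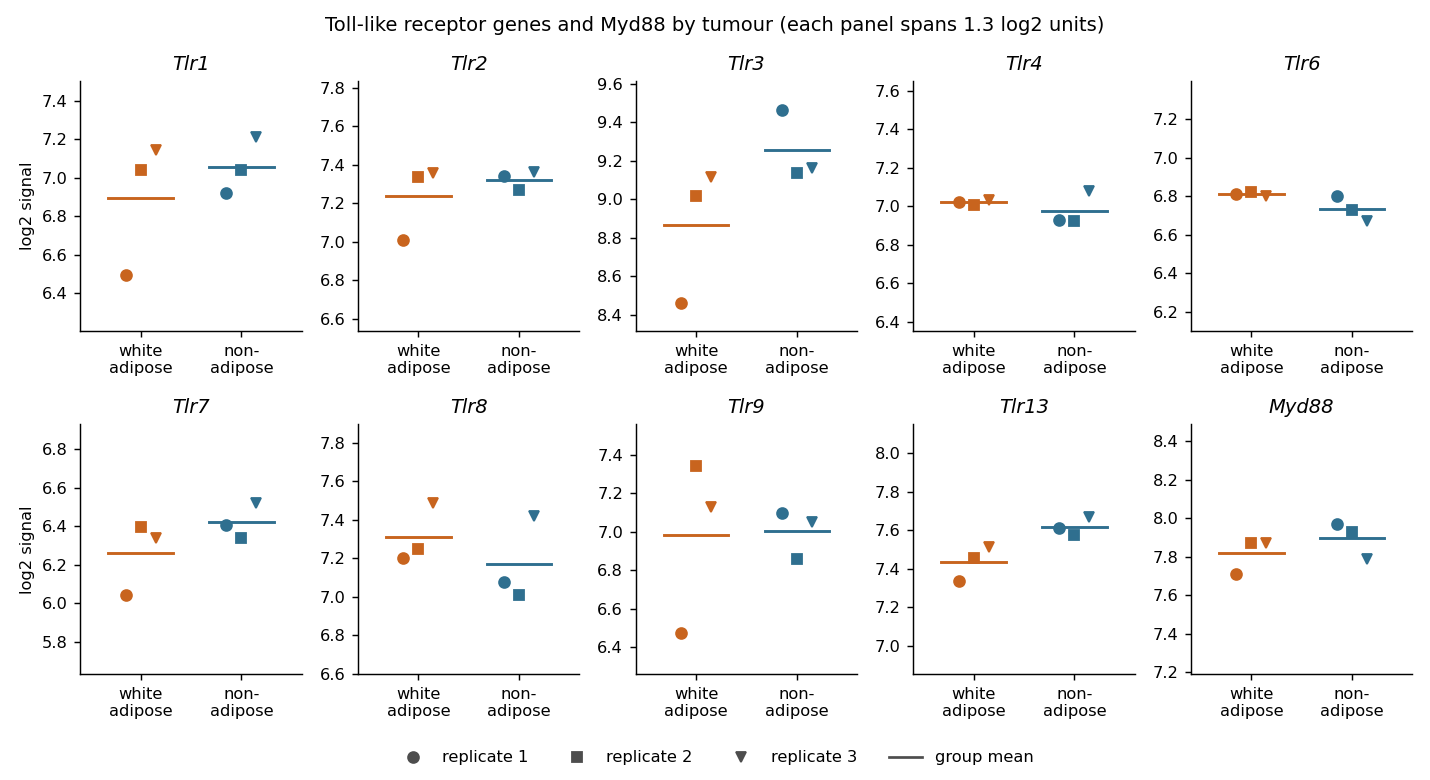
Log2 signal (vertical axis) of the 10 genes in each tumour, with white adipose tumours (orange) left of non-adipose tumours (blue), marker shape for the replicate number and a line at the group mean. White adipose replicate 1 is the lowest array for 7 genes, and the groups are apart only for Tlr3 and Tlr13.

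Tlr3 encodes the endosomal receptor for double-stranded RNA, which signals through the adaptor TICAM1. Its log2 signal was 8.46, 9.02 and 9.11 in white adipose replicates 1, 2 and 3, against 9.47, 9.14 and 9.16 in non-adipose replicates 1, 2 and 3. All white adipose tumours thus lay below all non-adipose ones, with white adipose replicate 1 far below the rest and a narrow gap between the other white adipose and non-adipose tumours. Means were 8.86 ± 0.35 in white adipose and 9.25 ± 0.18 in non-adipose tumours (SD, n = 3 each), a difference of -0.39 (SE 0.19, 95% confidence interval -0.86 to 0.077; limma adjusted p = 0.936). Without white adipose replicate 1 it was -0.19. Tlr3 had the widest range over the arrays of the 10 genes, 1.00 log2 units.

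Tlr13 encodes a mouse endosomal receptor for bacterial ribosomal RNA, a gene that humans lack. It was at 7.33, 7.45 and 7.51 in white adipose tumours, against 7.61, 7.57 and 7.67 in non-adipose tumours. The groups did not overlap, and each varied little. Means were 7.43 ± 0.092 in white adipose and 7.62 ± 0.046 in non-adipose tumours (SD, n = 3 each). The difference was -0.18 (SE 0.070, 95% confidence interval -0.35 to -0.012), 1.14-fold lower in white adipose tumours, with an unadjusted limma p of 0.0398 and an adjusted p of 0.936. It stayed between -0.22 and -0.13 whichever array was left out, with an unadjusted limma p of 0.0835 without white adipose replicate 1.

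Tlr7 and Tlr8, neighbouring X-linked genes for receptors of single-stranded RNA, had differences of opposite sign. Tlr7 was at 6.04, 6.40 and 6.34 in white adipose tumours, against 6.41, 6.34 and 6.52 in non-adipose tumours. White adipose replicate 1 was the low array and the others were mixed, with a difference of -0.16 (SE 0.11; limma adjusted p = 0.936) that became -0.053 without that array. Tlr8 was at 7.20, 7.25 and 7.48 in white adipose tumours, against 7.08, 7.01 and 7.42 in non-adipose tumours. Replicate 3 was highest at both sites, the groups overlapped, and the difference was 0.14 (SE 0.13; adjusted p = 0.936). Without white adipose replicate 3 it was 0.057. The difference between the 2 genes was not tested.

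Tlr9 encodes the receptor for unmethylated CpG DNA, a gene of plasmacytoid dendritic cells, B cells and, in mice, macrophages. It was at 6.47, 7.34 and 7.13 in white adipose tumours, against 7.10, 6.86 and 7.05 in non-adipose tumours. The white adipose tumours held both the lowest and the highest values of the 6. Their SD was 0.45 against 0.13 in non-adipose tumours (n = 3 each), and the difference of the means was -0.022 (SE 0.23, 95% confidence interval -0.57 to 0.53). Without white adipose replicate 1 it was 0.23, and with white adipose replicate 2 left out -0.20. That interval runs from 1.48-fold lower to 1.44-fold higher in white adipose tumours, so these arrays give Tlr9 no direction.

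Among the surface receptors, Tlr2 encodes the lipoprotein receptor that pairs with TLR1 or TLR6. Tlr2 was at 7.01, 7.34 and 7.36 in white adipose tumours, against 7.34, 7.27 and 7.36 in non-adipose tumours. Apart from white adipose replicate 1 the arrays lay within 0.1 of each other, and the difference of -0.087 (SE 0.11) became 0.025 without that array. Tlr1, whose product pairs with TLR2 on triacylated lipopeptides, was at 6.49, 7.04 and 7.14 in white adipose tumours, against 6.92, 7.04 and 7.21 in non-adipose tumours. White adipose replicate 1 was again lowest, and the difference of -0.17 (SE 0.18) became 0.034 without it. Tlr6, whose product pairs with TLR2 on diacylated lipopeptides, was at 6.81, 6.82 and 6.80 in white adipose tumours, against 6.80, 6.73 and 6.67 in non-adipose tumours. The difference was 0.077 (SE 0.060), with the lowest white adipose tumour level with the highest non-adipose one. Tlr1 and Tlr6 are neighbouring genes and close copies, so probes for one may also bind transcripts of the other. Their arrays nevertheless ran differently, with white adipose replicate 1 lowest for Tlr1 and among the highest for Tlr6.

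Tlr4 encodes the lipopolysaccharide receptor, which has been widely studied in fat because saturated fatty acids can stimulate signalling that depends on it. It was at 7.02, 7.01 and 7.03 in white adipose tumours, against 6.93, 6.92 and 7.08 in non-adipose tumours. The white adipose tumours were within 0.03 of each other and lay inside the range of the non-adipose ones. The difference was 0.044 (SE 0.066, 95% confidence interval -0.12 to 0.21), 1.03-fold, with the interval ending at 1.15-fold higher in white adipose tumours. Myd88, the shared adaptor, was at 7.71, 7.87 and 7.87 in white adipose tumours, against 7.97, 7.93 and 7.79 in non-adipose tumours. The groups overlapped through non-adipose replicate 3, and the difference was -0.078 (SE 0.081, 95% confidence interval -0.28 to 0.12), or -0.023 without white adipose replicate 1.

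**Figure D2:**
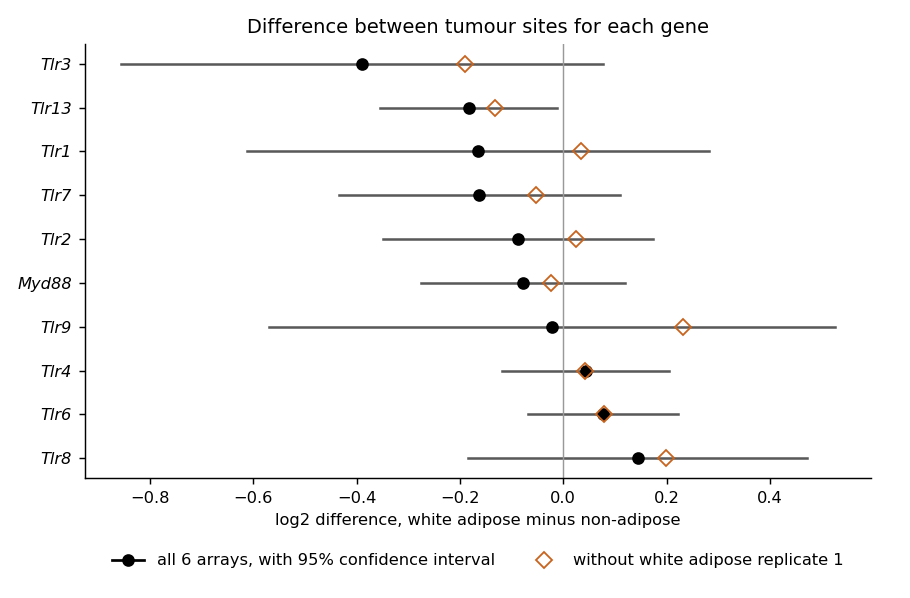
Log2 difference between white adipose and non-adipose tumours for each gene (horizontal axis), with 95% confidence intervals from limma (black) and the value without white adipose replicate 1 (open diamonds). The intervals of 9 genes cross 0, and Tlr1, Tlr2 and Tlr9 change sign without that array.

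The same white adipose tumour was low for most of the family. White adipose replicate 1 held the lowest value of the 6 arrays for 7 of the 10 genes (Tlr1, Tlr2, Tlr3, Tlr7, Tlr9, Tlr13 and Myd88), where 21.3% of all genes were lowest there. It was the highest array for 0 of the 10. The mean log2 signal over the 10 genes was 7.06, 7.35 and 7.38 in white adipose replicates 1, 2 and 3, against 7.36, 7.28 and 7.39 in the non-adipose tumours. White adipose replicates 2 and 3 lay inside the range of the non-adipose tumours, and replicate 1 lay below all others. Without it 4 of the 10 genes had a lower mean in white adipose tumours and the median difference was 0.029, where with all arrays these were 7 and -0.083. Tlr4, Tlr6 and Tlr8 were the genes that were not lowest in white adipose replicate 1.

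Markers of the cells that carry these receptors were read on the same arrays. The 10 macrophage markers, of which 10 were measured, averaged 9.18, 9.41 and 9.33 in white adipose replicates 1, 2 and 3, against 9.31, 9.32 and 9.44 in non-adipose tumours, and 4 of the 10 were lowest in white adipose replicate 1. Of these, Csf1r, the macrophage growth factor receptor, was at 8.98, 9.47 and 9.45 in white adipose tumours, against 9.20, 9.32 and 9.29 in non-adipose tumours. Adgre1, the gene of the F4/80 antigen, was at 8.75, 8.71 and 8.90, against 8.74, 8.66 and 8.95 in non-adipose tumours, so that macrophage gene was not low in white adipose replicate 1. Spi1, the myeloid transcription factor PU.1, was at 7.23, 7.59 and 7.62 in white adipose tumours, against 7.55, 7.50 and 7.60 in non-adipose tumours. The 8 neutrophil markers averaged 5.18, 5.47 and 5.43 in white adipose tumours, against 6.01, 5.29 and 5.93 in non-adipose tumours. That average was also lowest in white adipose replicate 1, as were 3 of the 8 genes. The B cell list, with 4 of 5 genes measured and 2 of the 4 lowest there, was lowest there too, at 4.65, against 4.93 to 5.12 on the other arrays. The plasmacytoid dendritic cell list (4 of 5 measured) was not, at 5.50, 5.47 and 5.56 in white adipose tumours, against 5.40, 5.47 and 5.36 in non-adipose tumours. The conventional dendritic cell list (6 of 7 measured) was lowest in non-adipose replicate 2, though 3 of its 6 genes were lowest in white adipose replicate 1. It was at 6.49, 6.89 and 6.80 in white adipose tumours, against 6.70, 6.33 and 6.79 in non-adipose tumours. In these bulk tumours fewer cells of a type and less RNA per cell cannot be told apart, and the part of these cells in the levels of the receptor genes was not tested.

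**Figure D3:**
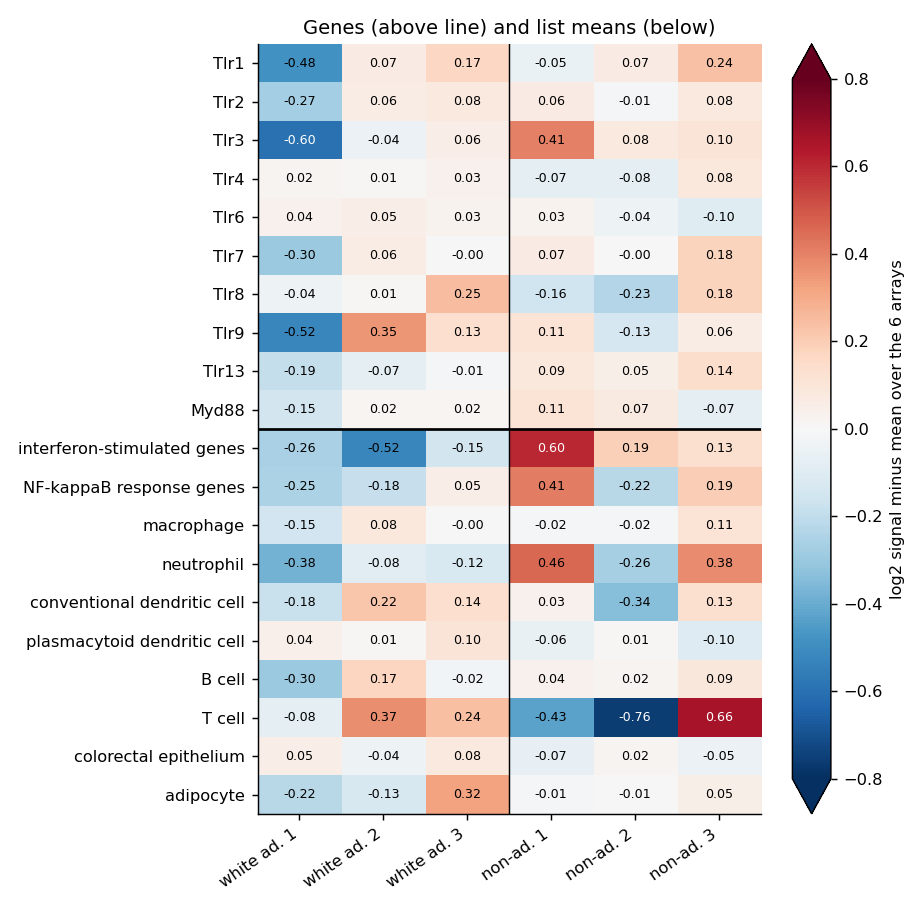
Log2 signal minus its mean over the 6 arrays (colour and printed number) for the 10 genes above the line and for the mean of each gene or marker list below it, white adipose tumours on the left. White adipose replicate 1 is blue for most genes, and non-adipose replicate 1 stands highest for Tlr3, Myd88 and the interferon-stimulated, NF-kappaB response and neutrophil lists.

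Non-adipose replicate 1 was the highest array for Tlr3 and Myd88, which interferons are known to induce, and for 15 of the 15 measured interferon-stimulated genes, where 14.8% of all genes were highest there. The other 8 genes of the family were not highest on that array, while 9 of the 15 NF-kappaB response genes and 4 of the 8 neutrophil markers were. The interferon-stimulated list averaged 7.77, 7.51 and 7.88 in white adipose tumours, against 8.63, 8.22 and 8.15 in non-adipose tumours. Its lowest array was white adipose replicate 2, whereas the lowest for Tlr3 and Myd88 was white adipose replicate 1. The 5 genes of middle or high signal whose profile over the 6 arrays came closest to that of Tlr3 were Gm5801, Ch25h, Trim21, Ccr2 and Eif2ak2, with root mean square differences of 0.095 to 0.11 log2 units after centring. Ch25h (cholesterol 25-hydroxylase), Trim21 (a cytosolic antibody receptor) and Eif2ak2 (the RNA-activated kinase PKR) are known interferon-induced genes. Ch25h was at 8.49, 8.83 and 8.93 in white adipose tumours, against 9.45, 9.24 and 9.17 in non-adipose tumours. For the mean of the 10 genes the closest profiles were those of Pabpc4, Gm2848, Ppie, Slc22a13 and Spi1, at 0.016 to 0.025. Likeness over 6 arrays of the same tumours is a description only.

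Promoter sequences are shown for the receptor genes whose groups did not overlap, Tlr3 and Tlr13, and for Tlr6 and Myd88, whose windows held a match to the interferon-stimulated response element. They come from RefSeq, build GRCm38.p6, 250 bases before to 50 after a transcript's start, 5′ to 3′ on the gene's strand. Windows were found for 8 of the 10 genes, 10 windows in all, Tlr1 and Tlr6 having 2 each; Tlr4 and Tlr7 had none in the table. Capitals mark matches on either strand to the interferon-stimulated response element (GAAA, any 2 bases, GAAA), the NF-kappaB motif (GGGA, any 2 bases, TTCC) and the PU.1 motif GAGGAAG.
Tlr3 (chr8:45410331-45410630, strand -): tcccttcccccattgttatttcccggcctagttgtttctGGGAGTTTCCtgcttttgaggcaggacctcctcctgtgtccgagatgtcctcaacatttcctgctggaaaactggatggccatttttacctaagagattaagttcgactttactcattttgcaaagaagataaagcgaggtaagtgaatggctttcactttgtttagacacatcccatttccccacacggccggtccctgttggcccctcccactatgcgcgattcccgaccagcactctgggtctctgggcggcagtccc
Tlr13 (chrX:106143025-106143324, strand +): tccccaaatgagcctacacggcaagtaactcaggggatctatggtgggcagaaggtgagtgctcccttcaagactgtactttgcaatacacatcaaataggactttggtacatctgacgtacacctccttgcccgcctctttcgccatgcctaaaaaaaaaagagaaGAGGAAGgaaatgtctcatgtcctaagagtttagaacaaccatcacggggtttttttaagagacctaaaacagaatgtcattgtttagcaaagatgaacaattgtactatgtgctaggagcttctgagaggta
Tlr6 (chr5:64959117-64959416, strand -): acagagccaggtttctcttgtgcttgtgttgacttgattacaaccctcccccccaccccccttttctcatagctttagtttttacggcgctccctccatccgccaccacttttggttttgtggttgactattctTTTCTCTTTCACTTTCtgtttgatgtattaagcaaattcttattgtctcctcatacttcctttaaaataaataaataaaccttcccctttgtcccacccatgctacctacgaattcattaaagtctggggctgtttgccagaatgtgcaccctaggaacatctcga
Myd88 (chr9:119339969-119340268, strand -): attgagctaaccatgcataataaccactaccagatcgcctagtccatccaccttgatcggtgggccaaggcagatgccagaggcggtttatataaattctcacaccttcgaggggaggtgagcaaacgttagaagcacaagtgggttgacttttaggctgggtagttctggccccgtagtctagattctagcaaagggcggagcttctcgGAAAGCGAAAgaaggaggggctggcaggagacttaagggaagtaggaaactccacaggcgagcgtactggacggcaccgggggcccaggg
The capitals in Tlr3 are an NF-kappaB match 211 bases before the start, and those in Tlr13 a PU.1 match 83 bases before it. In the Tlr6 window shown, 1 of that gene's 2, they are 2 interferon response element matches that overlap by 4 bases, and in Myd88 1 such match 40 bases before the start. Both Tlr6 windows lie at starts within the gene's span (chr5:64953092-64970942, strand -) and not at its 5′ end. Of the other windows, 1 of Tlr1 and that of Tlr9 held PU.1 matches, and those of Tlr2 and Tlr8 none. Among all 32851 windows of the same length, 3.44% held the interferon response element, 1.47% the NF-kappaB motif and 13.6% the PU.1 motif, beside 2, 1 and 3 of the 10 windows of this family. A match is a string of letters and not a measured binding site.

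The rest of the pathway was read from lists by role, in which no gene passed the adjusted threshold. Counts of genes lower or higher in the mean stand beside 50.2% lower and 49.8% higher among all genes. The 3 other Toll-like receptor genes of the mouse, Tlr5, Tlr11 and Tlr12, all had higher means in white adipose tumours, with Tlr5, the flagellin receptor, at 0.069 (SE 0.12) and Tlr11, a profilin receptor, at 0.29 (SE 0.19). Tlr5 was at -0.046 without white adipose replicate 1, and Tlr11 at 0.11 without non-adipose replicate 1. The median of the 3 was 0.087, and 0.35 without white adipose replicate 1. Their list means were 5.31, 5.47 and 5.66 in white adipose tumours, against 5.23, 5.34 and 5.44 in non-adipose tumours. No detection call says whether those are above background. Genes for ligand delivery and receptor chaperones had a median difference of 0.033, with 7 of 8 higher in the mean, and of 0.29 without white adipose replicate 1, 0.18 with array weights and 0.0021 without white adipose replicate 3. They ran from -0.012 (SE 0.28) for Cd180, a receptor homologue of B cells and myeloid cells, to 0.63 (SE 0.90) for Lbp, the lipopolysaccharide binding protein. Lbp was at 5.89, 8.70 and 8.03 in white adipose tumours, against 6.14, 6.25 and 8.35 in non-adipose tumours. It was high in white adipose replicates 2 and 3 and in non-adipose replicate 3, so its spread crossed the sites, and its difference ran from 0.046 without white adipose replicate 2 to 1.45 without white adipose replicate 1, with 1.21 under array weights. Unc93b1, which carries the endosomal receptors out of the endoplasmic reticulum and was named after its values were seen, was at 8.61, 9.37 and 9.20 in white adipose tumours, against 8.79, 8.74 and 9.28 in non-adipose tumours.

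The 5 other adaptors had a median difference of 0.016 (-0.040 to 0.080 with 1 array left out), between -0.075 (SE 0.19) for Pik3ap1, a B cell and macrophage adaptor, and 0.078 (SE 0.11) for Sarm1, the adaptor with NADase activity. The 12 measured kinases and ubiquitin ligases had a median of 0.0082 (-0.048 to 0.034 with 1 array left out), between -0.11 (SE 0.16) for Traf6, the ligase that acts after MYD88, and 0.11 (SE 0.11) for Ikbke, an interferon pathway kinase. In neither list was a gene at an unadjusted p under 0.05.

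Of 8 measured transcription factor genes 5 were lower in the mean, with a list median of -0.087, and of -0.032 without white adipose replicate 1. Among them were Irf7, the factor that drives interferon genes after TLR7 and TLR9, at -0.42 (SE 0.15) and Nfkb2, the p100 subunit of NF-kappaB, at -0.28 (SE 0.088). Both had groups that did not overlap and an unadjusted p under 0.05, a side on which 2.13% of all genes lay, and an adjusted p of 0.936 by limma. Irf8, a factor of dendritic cells and macrophages, was at 0.16 (SE 0.23), and at -0.080 without non-adipose replicate 2. Of 12 measured negative regulators 10 were lower in the mean, with a list median of -0.083 that ran from -0.19 without non-adipose replicate 2 to -0.020 without non-adipose replicate 3. Nfkbia, the NF-kappaB inhibitor that NF-kappaB itself induces, was at 9.18, 8.80 and 8.94 in white adipose tumours, against 9.73, 9.18 and 9.51 in non-adipose tumours, a difference of -0.50 (SE 0.17). Only white adipose replicate 1 and non-adipose replicate 2 met. Tnfaip3, the deubiquitinase A20, was at -0.46 (SE 0.17), and Sigirr, an inhibitory receptor, at 0.064 (SE 0.082).

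Of 15 NF-kappaB response genes 12 were lower in the mean, where 50.2% of all genes were, with a list median of -0.26. The chemokine gene Ccl2 was at 8.64, 8.21 and 8.47 in white adipose tumours, against 9.55, 8.79 and 8.87 in non-adipose tumours. Its groups did not overlap, and it differed by -0.63 (SE 0.23), or by -0.39 without non-adipose replicate 1. The neutrophil chemokine Cxcl2 differed by -0.41 (SE 0.17), the macrophage chemokine Ccl3 by -0.73 (SE 0.33) and the lymphocyte chemokine Ccl5 by 0.16 (SE 0.44). The list median was -0.060 without non-adipose replicate 1, in which 9 of the 15 genes were highest, and -0.45 without non-adipose replicate 2. Neutrophil markers averaged 6.01, 5.29 and 5.93 in non-adipose replicates 1, 2 and 3. The 5 skeletal muscle markers all had lower means in white adipose tumours, with list means of 5.45, 5.30 and 5.15 there, against 6.40, 5.23 and 7.29 in non-adipose tumours, so they too were lowest of the non-adipose tumours in replicate 2. The part of these cells in the values of the response genes was not tested. Of the interferon-stimulated genes, 12 of 15 lay lower at an unadjusted limma p under 0.05, where 2.13% of all genes did. Each had a limma adjusted p of 0.936. The list median was -0.57, and it ran from -0.73 without white adipose replicate 3 to -0.50 without non-adipose replicate 1. These genes included Oasl2 at -0.57 (SE 0.085), Oas2 at -0.75 (SE 0.19) and Rsad2 at -1.08 (SE 0.25), antiviral effector genes, while Irf9, a subunit of the interferon-activated factor, was at -0.24 (SE 0.11). Among genes for endogenous ligands, Hspa1a, a heat shock protein, was at -0.52 (SE 0.40) and Bgn, the proteoglycan biglycan, at 0.41 (SE 0.32). Hspa1a rested on white adipose replicate 2, at 6.50 against 7.84 or more on the other arrays, and Bgn on non-adipose replicate 1, at 11.36 against 12.33 or more elsewhere. Without those arrays Hspa1a differed by -0.046 and Bgn by 0.042.

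**Figure D4:**
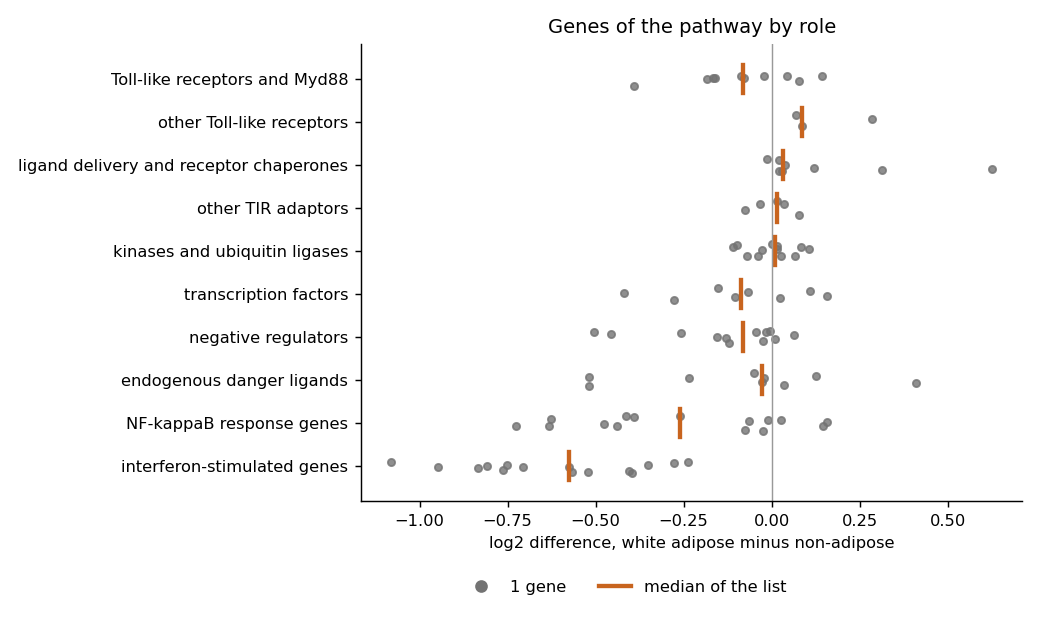
Log2 difference between white adipose and non-adipose tumours (horizontal axis) of every measured gene (grey points) of each list by role (vertical axis), with the list's median (orange bar). The medians of the receptor, adaptor and kinase lists lie between -0.083 and 0.087, and that of the interferon-stimulated list at -0.57.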

How the data were processed

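RNA of 6 tumours was labelled with biotin (WT PLUS kit) and put on Affymetrix arrays, per the labels' protocols. The submitters' processing notes name Affymetrix Expression Console; its version and its steps for background, summary and normalization are not stated in these sources. The authors deposited 1 value per probe set, read here as log2 signal: values lay between 0.973 and 13.6, array medians between 5.66 and 5.69. Columns of other samples numbered 0. Of 41345 probe sets, 23521 had exactly 1 gene symbol, 1814 several and 16010 none. Keeping the probe set with the highest mean for each gene gave 22180 genes. RefSeq (GRCm38.p6) held the Entrez identifiers of 23328 probe sets, and 0 symbols changed.

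The fit was limma 3.58.1 (R 4.3.3; lmFit and eBayes without trend), white adipose against non-adipose, all 6 arrays, no block, with Benjamini-Hochberg adjustment over all genes. SE and intervals are limma's; the number of arrays limits the precision (median SE 0.0972). The fit was tested on simulated data. Neither detection calls nor array dates entered, so batches were not tested. The members and gene lists were chosen with earlier results of these data known. From each list by role the genes with the lowest and highest difference and any at an unadjusted p under 0.05 were named, at most 4 a list; marker genes, Spi1 and Unc93b1 were named besides. Profile likeness was the root mean square difference of centred profiles, among genes above the median mean signal. Alternatives covered the block, variance trend, array weights, scaling, a filter on dim genes, the probe set rule and leaving out each array.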

Additional observations from a re-analysis of the deposited data

How the results depend on the processing

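Under all 13 alternatives run (a replicate block, variance trend with robust fitting, array weights, array medians subtracted, quantile normalization, the 25% of genes with the lowest signal left out, the mean over probe sets, and each of the 6 arrays left out) limma called 0 genes and 0 of the 10 family members. At an unadjusted p under 0.05 the genes numbered 841 with all arrays, 1800 without white adipose replicate 1 and 1621 with array weights. Tlr13 was at an unadjusted limma p under 0.05 with all arrays. That p was 0.0577 with a replicate block, 0.0552 with array weights, 0.0704 with quantile normalization and 0.0835 without white adipose replicate 1. The number of members under 0.05 stayed at 1 in 5 of the 13 alternatives. Over the 13 alternatives, 124 of 130 values for the 10 genes kept their direction. Of these alternatives, the replicate block, variance trend with robust fitting, dim gene filter and mean over probe sets could not change a member's difference. Their share of the 124 was thus fixed in advance. The median difference of the family ran from -0.17 to 0.029 with 1 array left out and from -0.10 to -0.021 otherwise, and the number of members with a lower mean from 4 to 7 with 1 array left out. With 1 array left out, values turned direction for Tlr1 (-0.29 to 0.034), Tlr2 (-0.15 to 0.025), Tlr9 (-0.20 to 0.23), Tlr5 (-0.046 to 0.17), Cd180 (-0.18 to 0.30), Pik3ap1 (-0.24 to 0.069), Sarm1 (-0.045 to 0.16), Traf6 (-0.28 to 0.034), Irf8 (-0.080 to 0.36), Sigirr (-0.011 to 0.11) and Ccl5 (-0.15 to 0.56). For the first 3 of these the highest value came without white adipose replicate 1. Array weights turned Tlr9 (0.12), Cd180 (0.18) and Pik3ap1 (0.019), and quantile normalization turned Cd180 (0.011). The cause was not tested. Replicate numbers are shared by the groups, and the labels do not say whether a shared number marks a pair. Deviations from the group means correlated at 0.14, 0.064 and 0.064 for same-numbered arrays. White adipose replicates 1 and 3 were closest to the non-adipose array of their own number, and white adipose replicate 2 to non-adipose replicate 3, at 0.086. These values do not settle whether the arrays are paired. With the replicate block 0 genes were called, and the family's median difference was -0.083. Genes at an unadjusted limma p under 0.05 then numbered 1081, against 841 without the block. With 3 arrays a group, log2 differences below about the interval half-widths given cannot be told from 0 even before adjustment. A difference above its half-width can still fail the adjusted test, as for Oasl2 at -0.57 (SE 0.085; limma adjusted p = 0.936).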
